A study of Mus musculus with 5 samples.

Results

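The serpins are a family of proteins that share 1 fold and are grouped into clades by sequence. Every gene whose name on the array starts with Serpin, then a letter and a digit, was taken as a member, the pseudogene Serpina4-ps1 included. The 54 members described here, of 28088 gene names with a probe, were represented by 71 probes, of which the brightest stood for a gene with more than 1. RNA came from the livers of male C57BL/6J mice, an inbred laboratory strain, at 25 weeks of age, and was pooled from 5 mice in each of 5 groups. Control mice were untreated. HFHFr-F mice ate a high-fat, high-fructose diet for 20 weeks and are labelled as severely insulin resistant. HFHFr-N mice ate it for 16 weeks and then normal diet for 4 weeks, and are labelled as insulin resistant. HFHFr-FA and HFHFr-NA mice had the same 16 weeks and then 4 weeks of the HFHFr or the normal diet with all-trans retinoic acid, the active form of vitamin A, added. HFHFr-FA is labelled as not insulin resistant with slight steatosis and HFHFr-NA as recovered to normal. Each pool was measured on 1 Agilent whole mouse genome array in 1 colour.

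Inhibitory serpins work as suicide substrates. A protease cuts an exposed loop, the serpin snaps into a more stable shape, and the protease is trapped and distorted in a covalent complex. The liver makes most of the serpins of blood plasma, which hold clotting, clot lysis, complement and leukocyte proteases in check, and some members carry hormones or fold collagen without inhibiting any protease. Clade B members lack a classical signal peptide and mostly act inside cells.

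Values are scaled signals, the software's background-subtracted signal of a probe divided by the 75th percentile of its array, so a value of 1 lies at that percentile. A ratio is the log2 of 1 array's scaled signal over another's, and 1 or -1 marks a 2-fold difference. With 1 array of pooled RNA per group there is no spread between mice and no test: "higher" and "lower" describe these pools. Spots of the same probe had a median SD of 0.061 to 0.084 on the log2 scale within an array, which leaves out mice, extraction and hybridisation. The software's own error on the signal of the members measured on all arrays was 10% to 17.4%. Hybridisation signal depends on each probe, so no member's level is set against another's. The HFHFr-FA array sat by itself on another slide, scanned separately, and in every comparison with it the slide and the group cannot be told apart. The labelled tissue was borne out by 11 of 11 hepatocyte markers well above background on all arrays, and in a whole tissue fewer cells of a type and less RNA per cell cannot be told apart.

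Of the 54 members 29 were well above background on at least 1 array (53.7%, against 54.8% of all genes), 25 of them on all 5. Clade A, the main group of secreted plasma serpins, had 14 of 20 members measured. Clade B had 8 of 25. Both clade F members were measured, as were Serpinc1, Serpind1, Serpine2, Serping1 and Serpinh1. The 25 members not well above background on any array were Serpina1f, Serpina3a, Serpina3b, Serpina5, Serpina9, Serpina12, Serpinb2, Serpinb3a, Serpinb3b, Serpinb3c, Serpinb3d, Serpinb5, Serpinb7, Serpinb9b to Serpinb9g, Serpinb10 to Serpinb13, Serpini1 and Serpini2. Among these, Serpina12 is vaspin, a secreted adipokine, and Serpini1 is neuroserpin of the nervous system. Genes named Serpina1a and Serpina1e were not analysed here.

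Members measured on all 5 arrays varied more between arrays than most genes did. Their range from the lowest to the highest array had a median of 1.03 on the log2 scale, against 0.57 over the 12965 genes measured on all arrays. In 12 of the 25 members (48.0%) the range was under 1, as it was in 84.0% of all genes. HFHFr-F was the lowest array for 11 of the 25 members (44.0%, against 31.5% of all genes), and control was the highest for 8 (32.0%, against 19.8%). HFHFr-NA was the lowest array for 7 (28%, against 13.1%). For 6 members HFHFr-F was the highest array (24.0%, against 16.6%).

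**Figure D1:**
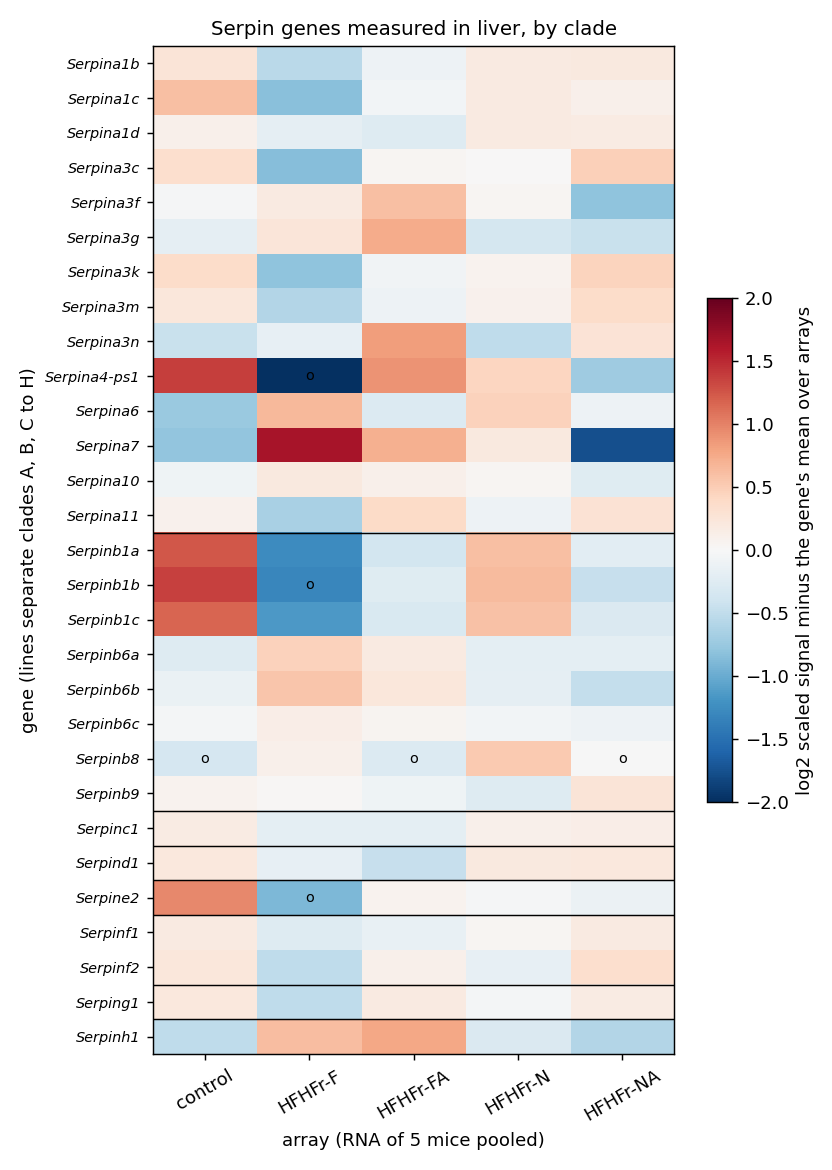
Heat map of the 29 measured serpin genes, rows by clade and columns by array, coloured by log2 scaled signal minus the gene's mean over the 5 arrays (scale from -2 to 2, values beyond it take the end colour, and a circle marks a gene not well above background on that array). The Serpinb1 genes and Serpina4-ps1 are blue in HFHFr-F and red in control, and Serpina7 is red in HFHFr-F and blue in HFHFr-NA.

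The comparison of HFHFr-F with control describes livers that had the diet throughout. In HFHFr-F, 3 of the 29 measured members were at least 2-fold higher, which is 10.3% where 5.43% of all 14430 measured genes were. They were the hormone carriers Serpina6 and Serpina7 and the collagen chaperone Serpinh1. Another 8 were at least 2-fold lower, 27.6% where 3.22% of all genes were. These were Serpina1c, Serpina3c, Serpina3k, Serpina4-ps1, Serpinb1a, Serpinb1b, Serpinb1c and Serpine2. The Serpinb1 genes are close relatives whose shared signal was not separated, and so are Serpina3c and Serpina3k. The count may therefore hold fewer separate readings. The median ratio of the 29 members was -0.37, and that of all genes -0.08. Of the ratios 4 are bounds, because 1 of the 2 arrays did not measure the gene: the bright signal is then divided by whichever is larger on the other array, its own signal or that of the dimmest probe well above background, and such a gene cannot come out in the other direction. The 11 hepatocyte markers had 0 members higher, 2 lower and a median of -0.25 in the same comparison, and their summed signal was 6063 in control, 5081 in HFHFr-F, 5143 in HFHFr-FA, 6094 in HFHFr-N and 6438 in HFHFr-NA. Their part in the serpin values was not tested.

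HFHFr-N over control shows which differences were present once the mice had been back on normal diet for 4 weeks. Serpina6 was the 1 member at least 2-fold higher (3.45% of the members, against 1.14% of 14307 genes). None was 2-fold lower, where 0.825% of all genes were. Under 5 of the 8 alternative settings 1 member was 2-fold lower, and the lowest ratios in the main setting were -0.99 for Serpine2 and -0.94 for Serpina4-ps1. With no detection filter that member was Serpina9, which was not well above background on any array (0.0819 in control, 0.0197 in HFHFr-N). Members had a median of -0.14 and all genes one of 0.02.

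HFHFr-N over HFHFr-F asks what differed between pools that left the diet and pools that stayed on it. Serpina1c, Serpina4-ps1, Serpinb1a, Serpinb1b and Serpinb1c were at least 2-fold higher in HFHFr-N, 17.2% of the members where 2.12% of 14597 genes were. Here too the Serpinb1 genes may share signal. Serpina7 alone was 2-fold lower, 3.45% where 3.67% of all genes were. The median was 0.35 for members and 0.10 for all genes. This comparison and the 2 before it share arrays pairwise, so their values are given side by side and not counted as repeats of each other.

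Retinoic acid was given on top of either diet. In HFHFr-FA over HFHFr-F, Serpina3n, Serpina4-ps1, Serpina11 and Serpinb1b were at least 2-fold higher, 13.8% of the members where 2.77% of 14721 genes were. None was 2-fold lower, where 2.83% of all genes were. Centring the arrays on their medians turned this split of 4 higher and 0 lower into 1 higher and 2 lower. The main median was 0.44 over members and 0.03 over all genes. In HFHFr-NA over HFHFr-N, none of the members was 2-fold higher, where 1.51% of 14666 genes were. Serpina4-ps1, Serpina7 and Serpinb1b were at least 2-fold lower, 10.3% where 1.32% of all genes were. Here the members' median was -0.05 and that of all genes 0.03.

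**Figure D2:**
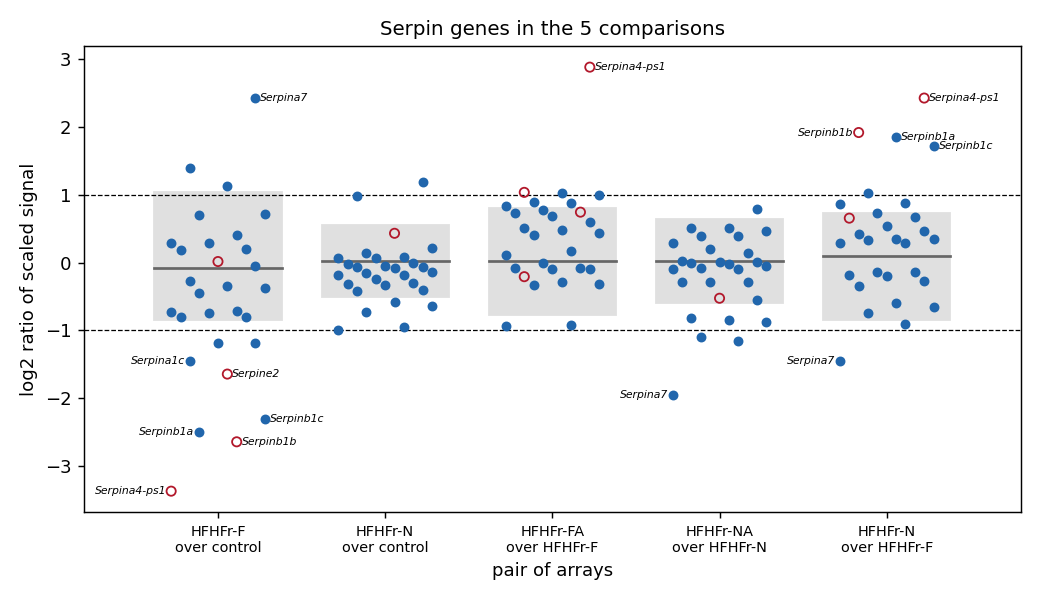
Log2 ratio of scaled signal (vertical axis) of the 29 measured serpin genes in the 5 pairs of arrays (horizontal axis). Filled points are measured on both arrays, open points are bounds, grey boxes span the 5th to 95th percentile of all measured genes with their median as a line, and dashed lines mark 2-fold; Serpina4-ps1 and the Serpinb1 genes lie below the box in HFHFr-F over control, and Serpina7 above it at 2.43.

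Serpina1 genes encode alpha-1 antitrypsin, the main plasma inhibitor of neutrophil elastase, which is 1 gene in humans and several near-identical ones in mice. All 3 measured copies had a lower scaled signal in HFHFr-F than control, and only Serpina1c by 2-fold. Serpina1c read 366 in control, 135 in HFHFr-F, 230.0 in HFHFr-FA, 273 in HFHFr-N and 258 in HFHFr-NA. Its ratio of HFHFr-F to control was -1.44, and HFHFr-N over HFHFr-F gave 1.02, a value that fell to between 0.88 and 0.92 under 4 alternative settings. Control was its highest array and HFHFr-F its lowest, with HFHFr-FA between HFHFr-F and the pools on normal diet. Serpina1b read 511 in control, 291 in HFHFr-F, 397 in HFHFr-FA, 485 in HFHFr-N and 489 in HFHFr-NA. It had a ratio of -0.81 in HFHFr-F over control, and the pools on normal diet had ratios to control of -0.08 and -0.06. Serpina1d read 1375 in control, 1138 in HFHFr-F, 1080.0 in HFHFr-FA, 1454 in HFHFr-N and 1438 in HFHFr-NA. Here the 2 pools on the HFHFr diet were the 2 lowest, with ratios to control of -0.27 for HFHFr-F and -0.35 for HFHFr-FA, and HFHFr-FA over HFHFr-F gave -0.08. Before scaling, Serpina1d read 239196 in control and 253767 in HFHFr-F, so its direction in HFHFr-F rests on the scaling. Serpina1b and Serpina1c were lower in HFHFr-F before scaling too.

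The promoter windows of these copies are shown because the ratios of the copies differ while their upstream sequences are nearly alike. They run from 250 bases before to 50 after the gene's start, all on the minus strand of chromosome 12, and come from RefSeq (GRCm38.p6, a later build than that of the probe positions). The Serpina1b window lies at chr12:103738140-103738439, that of Serpina1c at chr12:103904901-103905200 and that of Serpina1d at chr12:103773584-103773883. Capitals in the second and the last mark bases that differ from, or are added to, the Serpina1b window in a pairwise alignment.
Serpina1b: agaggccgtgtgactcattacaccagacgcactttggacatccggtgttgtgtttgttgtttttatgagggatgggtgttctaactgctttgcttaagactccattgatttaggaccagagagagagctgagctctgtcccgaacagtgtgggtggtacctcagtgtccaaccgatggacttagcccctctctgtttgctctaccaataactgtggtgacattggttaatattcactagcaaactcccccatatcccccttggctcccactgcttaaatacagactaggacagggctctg
Serpina1c: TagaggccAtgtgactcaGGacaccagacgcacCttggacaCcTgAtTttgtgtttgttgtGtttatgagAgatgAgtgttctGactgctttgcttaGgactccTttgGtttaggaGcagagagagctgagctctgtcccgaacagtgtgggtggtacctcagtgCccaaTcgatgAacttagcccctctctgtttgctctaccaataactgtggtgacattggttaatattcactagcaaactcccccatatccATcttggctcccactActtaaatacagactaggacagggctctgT
Serpina1d: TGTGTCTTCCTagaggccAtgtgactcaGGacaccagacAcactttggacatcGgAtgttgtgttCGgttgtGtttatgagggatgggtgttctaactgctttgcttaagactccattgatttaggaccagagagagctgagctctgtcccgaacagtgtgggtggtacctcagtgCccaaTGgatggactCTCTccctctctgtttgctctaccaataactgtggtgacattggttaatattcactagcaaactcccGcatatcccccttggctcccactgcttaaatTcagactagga
Serpina1b and Serpina1c were identical at 276 of 302 aligned columns (91.4%), with 22 mismatches. Identity was 86.9% between Serpina1b and Serpina1d and 85.2% between Serpina1c and Serpina1d. All 3 windows hold the letters GTTAAT, the half-site bound by the liver factor HNF1, inside the run ttggttaatattcac. On either strand these letters stand in 10 of 53 windows of 45 matched members (18.9%) and in 7.10% of 32851 promoter windows of the RefSeq table. The 10 include overlapping windows of Serpina7 and the near-alike Serpina1 windows, so they are not 10 separate finds. A match describes letters and is no proof of a binding site.

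Serpina3 genes are the mouse relatives of human alpha-1-antichymotrypsin, again 1 gene in humans and a cluster in mice. They did not move as 1 group: Serpina3c, Serpina3k and Serpina3m were lowest in HFHFr-F, while Serpina3g and Serpina3n were highest in HFHFr-FA. Serpina3c read 79.6 in control, 34.9 in HFHFr-F, 64.4 in HFHFr-FA, 63.4 in HFHFr-N and 87.4 in HFHFr-NA. Its ratio was -1.19 in HFHFr-F over control and 0.89 in HFHFr-FA over HFHFr-F. Serpina3k, or contrapsin, which in rodents binds tissue kallikrein, read 1118 in control, 494 in HFHFr-F, 822 in HFHFr-FA, 905 in HFHFr-N and 1183 in HFHFr-NA. It was lower in HFHFr-F than control by a ratio of -1.18, and its second probe, which read 291 in control, 214 in HFHFr-F, 254 in HFHFr-FA, 296 in HFHFr-N and 341 in HFHFr-NA, gave -0.44. Both probes put HFHFr-F lowest and HFHFr-NA highest, but 2-fold was reached by the brighter probe alone, and not after quantile normalization (-0.86). The chosen Serpina3c and Serpina3k probes were 70.3% identical over 37 overlapping bases. Signal shared between the Serpina3 relatives was not separated, so their values need not be separate readings. Serpina3m read 1059 in control, 605 in HFHFr-F, 845 in HFHFr-FA, 964 in HFHFr-N and 1176 in HFHFr-NA. That is the same order of arrays as for Serpina3k, with a ratio of -0.81 in HFHFr-F over control.

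Serpina3n, a plasma serpin that responds strongly to inflammation and inhibits granzyme B and elastase, read 9.18 in control, 11.2 in HFHFr-F, 22.4 in HFHFr-FA, 8.81 in HFHFr-N and 15.2 in HFHFr-NA. HFHFr-FA was highest, at the 2-fold line over HFHFr-F (1.0, and 0.90 to 0.998 under the 4 alternative settings that took it below the line) and 1.29 over control. Retinoic acid on normal diet gave 0.79, and the diet alone 0.29. Serpina3g, an inhibitor of lysosomal cysteine proteases inside leukocytes, read 3.75 in control, 4.99 in HFHFr-F, 7.12 in HFHFr-FA, 3.30 in HFHFr-N and 3.10 in HFHFr-NA. It too was highest in HFHFr-FA, 0.93 over control, and its 2 pools on normal diet lay below control. Serpina3f read 0.257 in control, 0.296 in HFHFr-F, 0.394 in HFHFr-FA, 0.270 in HFHFr-N and 0.150 in HFHFr-NA. HFHFr-FA was again highest and HFHFr-NA lowest, with -0.84 in HFHFr-NA over HFHFr-N, and its second probe was also highest in HFHFr-FA.

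Upstream windows of Serpina3c and Serpina3n are shown because they were the most alike of the Serpina3 windows compared, while the genes had HFHFr-F over control ratios of -1.19 and 0.29. The first lies at chr12:104153823-104154122 on the minus strand and the other at chr12:104406458-104406757 on the plus strand (GRCm38.p6, RefSeq). Capitals mark bases of Serpina3n that differ from, or are added to, the Serpina3c window.
Serpina3c: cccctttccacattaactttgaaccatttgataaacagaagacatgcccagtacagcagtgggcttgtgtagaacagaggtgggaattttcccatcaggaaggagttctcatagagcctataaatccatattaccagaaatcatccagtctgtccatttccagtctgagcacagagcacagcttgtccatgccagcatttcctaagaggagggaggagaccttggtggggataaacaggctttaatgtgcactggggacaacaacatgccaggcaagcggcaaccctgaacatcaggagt
Serpina3n: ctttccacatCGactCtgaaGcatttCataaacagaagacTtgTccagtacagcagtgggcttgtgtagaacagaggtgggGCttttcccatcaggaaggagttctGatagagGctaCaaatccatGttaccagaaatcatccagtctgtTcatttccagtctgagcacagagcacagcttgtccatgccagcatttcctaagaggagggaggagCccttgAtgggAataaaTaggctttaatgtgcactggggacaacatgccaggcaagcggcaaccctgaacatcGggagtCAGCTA
They were identical at 275 of 306 aligned columns (89.9%), with 19 mismatches. On the reverse strand the Serpina3c window holds GTTAAT once, and the Serpina3n window does not hold it on either strand. Neither holds TTCNNNGAA, the core bound by STAT factors, which stands in 10 of the 53 member windows (18.9%) and in 8.30% of all promoter windows, both strands searched. Serpinb2, Serpina3f and Serpina11 were each counted through overlapping windows, so the 10 are not separate finds. Among measured members it was found upstream of Serpina11, Serpina3f, Serpina3g and Serpinb6a.

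**Figure D3:**
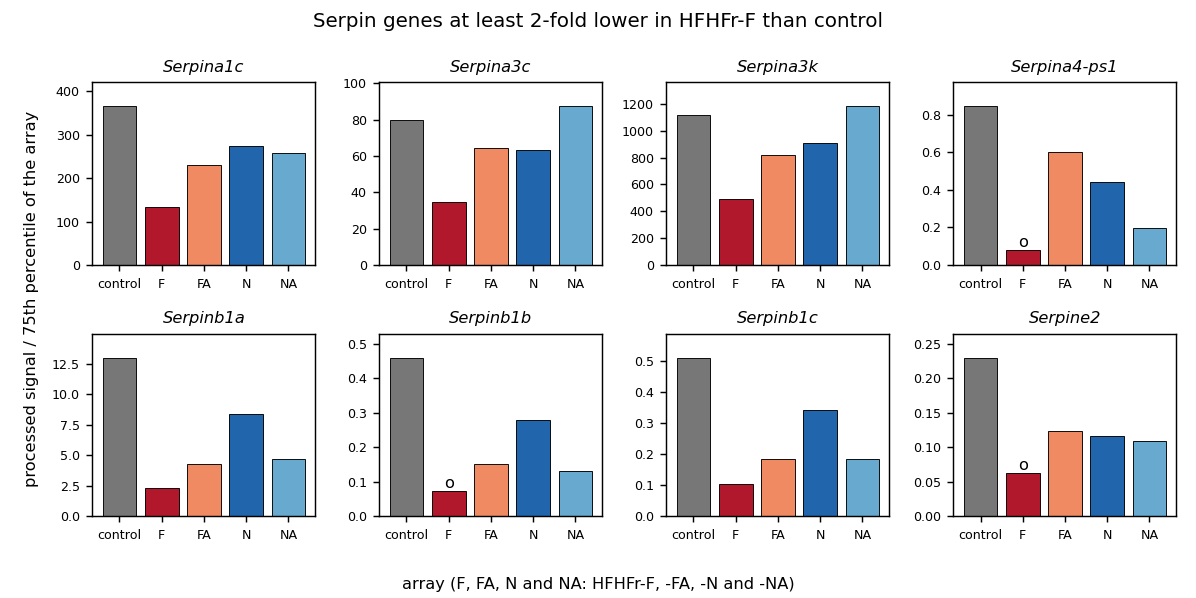
Scaled signal (processed signal over the array's 75th percentile, linear axis from 0) on the 5 arrays for the 8 serpin genes at least 2-fold lower in HFHFr-F than control; each bar is 1 array of 5 pooled mice, and a circle marks a signal not well above background. HFHFr-F is the lowest bar in all 8 panels, and in the 3 Serpinb1 panels control is highest and HFHFr-N second.

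Acute phase genes, which the liver makes in inflammation, leaned higher in 4 of the 5 comparisons and lower in HFHFr-N over HFHFr-F. Of 26 listed genes 10 were higher and 1 lower by 2-fold or more in HFHFr-F over control (median 0.43, where 5.43% of all genes were higher and 3.22% lower), and 5 higher and 0 lower in HFHFr-FA over HFHFr-F (median 0.32). In HFHFr-N over control 6 were higher and 0 lower (0.20), in HFHFr-NA over HFHFr-N 1 and 0 (0.18), and in HFHFr-N over HFHFr-F 1 and 7 (-0.28). Of all genes, 2.77% were higher and 2.83% lower in HFHFr-FA over HFHFr-F, and 1.14% and 0.825% in HFHFr-N over control. These shares were 1.51% and 1.32% in HFHFr-NA over HFHFr-N and 2.12% and 3.67% in HFHFr-N over HFHFr-F. Markers of neutrophils, the source of elastase, were well above background for 1 of 8 in control, 4 in HFHFr-F, 6 in HFHFr-FA, 3 in HFHFr-N and 3 in HFHFr-NA. Of all spots, 46.7% in control to 49.4% in HFHFr-FA were well above background. The neutrophil markers are few and dim. Their summed signal ran from 2.33 in control through 3.74 in HFHFr-N, 6.30 in HFHFr-F and 6.78 in HFHFr-NA to 11.3 in HFHFr-FA, the array on its own slide. The granule genes Ngp and Ltf were well above background on no array. The part of these cells in the serpin values was not tested.

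Serpina6 and Serpina7 keep the serpin fold but carry hormones. Serpina6, corticosteroid-binding globulin, carries cortisol and corticosterone in plasma. It read 33.0 in control, 86.8 in HFHFr-F, 45.7 in HFHFr-FA, 75.5 in HFHFr-N and 51.3 in HFHFr-NA with a probe at chr12:104884880-104884939 (mm9). Both pools without retinoic acid were over 2-fold above control, HFHFr-F by 1.39 and HFHFr-N by 1.19. Both pools with retinoic acid were nearer to control, with ratios of -0.93 in HFHFr-FA over HFHFr-F and -0.56 in HFHFr-NA over HFHFr-N, neither of which is 2-fold.

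Thyroxine-binding globulin, Serpina7, carries thyroid hormone. Serpina7 read 1.28 in control, 6.88 in HFHFr-F, 3.59 in HFHFr-FA, 2.53 in HFHFr-N and 0.655 in HFHFr-NA with a probe at chrX:135615848-135616502 (mm9). Its range was the widest of the 25 members measured on all arrays, 3.39 on the log2 scale, from HFHFr-NA to HFHFr-F. The ratio to control was 2.43 in HFHFr-F and 0.99 in HFHFr-N, which misses 2-fold narrowly. Retinoic acid went with a lower signal on both diets, -0.94 on the HFHFr diet and -1.95 on normal diet, where HFHFr-NA also lay below control (-0.96). The 2-fold calls of both carriers were kept under all 8 alternative settings. Each carrier has 1 probe, measured on all arrays, so dropping the detection filter and averaging probes could not change its calls.

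Liver genes with a sex bias, which depends on the pattern of growth hormone, differed on the same arrays. Female-biased genes had 8 of 14 members at least 2-fold higher and 2 lower in HFHFr-F over control (median 1.32), and 4 of 11 higher and 0 lower in HFHFr-N over control (0.57). With retinoic acid 5 of 14 were lower in HFHFr-FA over HFHFr-F (-0.93) and 4 of 13 in HFHFr-NA over HFHFr-N (-0.57), and none was higher in either. Male-biased genes had 10 of 19 lower and 0 higher in HFHFr-F over control (-1.02), 2 lower and 0 higher in HFHFr-N over control (-0.52), 7 higher and 0 lower in HFHFr-FA over HFHFr-F (0.36) and 1 higher and 3 lower in HFHFr-NA over HFHFr-N (-0.05). In HFHFr-N over HFHFr-F the male-biased list had 4 higher and 0 lower (0.52) and the female-biased list 2 higher and 5 lower (-0.38). The summed signal of the female-biased list was 1093 in control, 939 in HFHFr-F, 342 in HFHFr-FA, 1322 in HFHFr-N and 969 in HFHFr-NA. That of the male-biased list was 4757, 2989, 3205, 4261 and 4391 in the same order. The female-biased sum was thus lower in HFHFr-F than control although the median ratio was 1.32. Of all genes, 5.43% were higher and 3.22% lower in HFHFr-F over control, and 1.14% and 0.825% in HFHFr-N over control. These shares were 2.77% and 2.83% in HFHFr-FA over HFHFr-F and 1.51% and 1.32% in HFHFr-NA over HFHFr-N. In HFHFr-N over HFHFr-F they were 2.12% and 3.67%. No link between these lists and the serpins was tested.

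Serpina10 inhibits clotting factor Xa together with protein Z, and it was less than 2-fold apart in all 5 comparisons: it read 3.24 in control, 3.94 in HFHFr-F, 3.68 in HFHFr-FA, 3.56 in HFHFr-N and 2.92 in HFHFr-NA. Its ratios ran from -0.29 to 0.28, and those of its second probe, well above background on all arrays, from -0.18 to 0.44. Serpina11, a secreted clade A serpin of little known function, read 9.89 in control, 5.98 in HFHFr-F, 12.2 in HFHFr-FA, 8.70 in HFHFr-N and 11.5 in HFHFr-NA. HFHFr-F was lowest and HFHFr-FA highest, a ratio of 1.03 that fell to 0.93 with median centring and 0.90 with normexp background.

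Serpina4-ps1 is a pseudogene related to kallistatin, the human SERPINA4 product that inhibits tissue kallikrein. It had the largest bounds of the family. Serpina4-ps1 read 0.847 in control, 0.0819 in HFHFr-F, 0.605 in HFHFr-FA, 0.441 in HFHFr-N and 0.198 in HFHFr-NA, with HFHFr-F not well above background. Control was highest, HFHFr-FA second and HFHFr-F lowest. The ratio of HFHFr-F to control was -3.37 or lower and that of HFHFr-FA to HFHFr-F 2.88 or higher. On normal diet retinoic acid went with a lower signal, -1.15 in HFHFr-NA over HFHFr-N (-0.34 with normexp background).

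**Figure D4:**
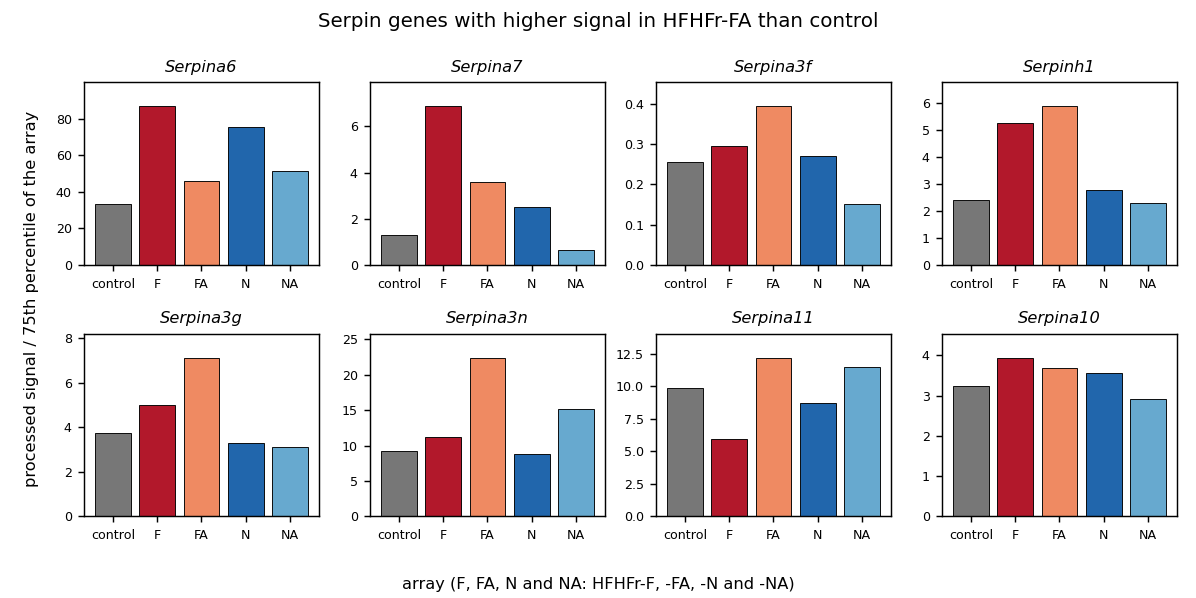
Scaled signal (linear axis from 0) on the 5 arrays for 8 serpin genes that read higher in HFHFr-FA than control; each bar is 1 array of 5 pooled mice. Serpina6, Serpina7 and Serpina10 are highest in HFHFr-F, while Serpina3n, Serpina3g, Serpina3f, Serpina11 and Serpinh1 are highest in HFHFr-FA.

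Serpinb1a encodes the inhibitor of neutrophil elastase, cathepsin G and proteinase 3 found inside leukocytes. In mice it is also known as a liver-secreted factor that promotes growth of pancreatic beta cells in insulin resistance. Serpinb1b and Serpinb1c are its close relatives on chromosome 13. All 3 had the same leading order, control above HFHFr-N above all others, with HFHFr-F lowest. Signal shared between the 3 was not separated, so the common order need not be 3 separate readings. Their probes are shown because such relatives could share signal. No overlap with 60% identity or more was found between them. The Serpinb1b probe was 71.4% identical to that of Serpina1b over 35 overlapping bases, and 63.3% to the second Serpinc1 probe over 49. The Serpinb1c probe was 64.2% identical to that of Serpinb3a over 53 bases and 60.7% to that of Serpinb8 over 56.
Serpinb1a: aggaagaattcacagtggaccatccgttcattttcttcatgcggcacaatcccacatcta
Serpinb1b: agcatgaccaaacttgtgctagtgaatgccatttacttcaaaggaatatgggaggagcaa
Serpinb1c: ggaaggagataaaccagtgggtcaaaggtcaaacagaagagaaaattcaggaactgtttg
They lie at chr13:32934722-32934781 on the minus strand, chr13:33183225-33183284 on the plus strand and chr13:32976212-32978061 on the minus strand (mm9). The span of the last, 1850 bases, exceeds the probe's 60, so it crosses an intron. Comparing probes with each other does not show whether a probe binds a relative's transcript elsewhere along its length.

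Serpinb1a read 13.0 in control, 2.31 in HFHFr-F, 4.28 in HFHFr-FA, 8.37 in HFHFr-N and 4.74 in HFHFr-NA. HFHFr-F stood -2.49 from control on the log2 scale and the pools given retinoic acid were also over 2-fold below control, with ratios of -1.61 in HFHFr-FA and -1.46 in HFHFr-NA. Against its own diet, retinoic acid went with a higher signal in HFHFr-FA (0.89) and a lower one in HFHFr-NA (-0.82). Serpinb1b read 0.459 in control, 0.0726 in HFHFr-F, 0.151 in HFHFr-FA, 0.278 in HFHFr-N and 0.130 in HFHFr-NA, with HFHFr-F not well above background. The ratio of HFHFr-F to control was -2.64 or lower. Its retinoic acid ratios lay just past 2-fold in opposite directions, 1.04 or higher on the HFHFr diet and -1.09 on normal diet. The first fell under 2-fold in 5 of the 8 alternative settings, to 0.94 with median centring, 0.91 with quantile normalization, 0.85 with cyclic loess, 0.24 with normexp background and 0 with the mean of its probes. The ratio on normal diet became -0.69 with the mean of its probes and -0.08 with normexp background. Serpinb1c read 0.510 in control, 0.103 in HFHFr-F, 0.185 in HFHFr-FA, 0.342 in HFHFr-N and 0.186 in HFHFr-NA, with -2.31 in HFHFr-F over control and 1.73 in HFHFr-N over HFHFr-F (0.80 with normexp background). Second probes of Serpinb1b and Serpinb1c were not well above background on any array, and Serpinb1a had 1 probe. The HFHFr-F over control calls of Serpinb1a and Serpinb1c were kept under all 8 alternative settings, and that of Serpinb1b under 7, the mean of its probes giving -0.47. Dropping the detection filter could not take any of these calls under 2-fold, nor could the mean of probes for Serpinb1a.

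The other measured clade B members differed by under 2-fold in each of the 5 comparisons. Serpinb6a and Serpinb6b are relatives of human SERPINB6, an intracellular inhibitor of cathepsin G. Serpinb6a read 1.35 in control, 2.23 in HFHFr-F, 1.83 in HFHFr-FA, 1.41 in HFHFr-N and 1.41 in HFHFr-NA, and Serpinb6b 0.816 in control, 1.32 in HFHFr-F, 1.05 in HFHFr-FA, 0.791 in HFHFr-N and 0.648 in HFHFr-NA. Serpinb6b was 2.04-fold apart between HFHFr-F and HFHFr-NA, which are not a pair compared here. Both were highest in HFHFr-F, by 0.72 and 0.70 over control. Serpinb6c had a ratio of 0.18. Serpinb9, which protects cells against granzyme B, read 0.182 in control, 0.176 in HFHFr-F, 0.165 in HFHFr-FA, 0.146 in HFHFr-N and 0.208 in HFHFr-NA on its brighter probe, where HFHFr-NA was highest. Its second probe gave another order, with 0.0943 in control, 0.153 in HFHFr-F, 0.108 in HFHFr-FA, 0.102 in HFHFr-N and 0.0598 in HFHFr-NA, HFHFr-F highest and HFHFr-NA lowest, and was well above background on 3 arrays, those other than control and HFHFr-NA. Serpinb8 was well above background in HFHFr-N and HFHFr-F alone. Leukocytes also make clade B serpins. Macrophage markers had 6 of 14 members at least 2-fold higher and 0 lower in HFHFr-F over control (median 0.96), where 5.43% of all genes were higher and 3.22% lower. Their summed signal was 115 in control, 229 in HFHFr-F, 209.7 in HFHFr-FA, 144 in HFHFr-N and 108 in HFHFr-NA. Their part in these values was not tested.

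The plasma inhibitors of clotting, clot lysis and complement outside clade A all had a lower scaled signal in HFHFr-F than control, and none reached 2-fold. The median of the hepatocyte markers in that comparison was -0.25. Serpinc1, antithrombin, which blocks thrombin and factor Xa, read 434 in control, 341 in HFHFr-F, 338 in HFHFr-FA, 417 in HFHFr-N and 425 in HFHFr-NA. Its ratio of HFHFr-F to control was -0.35, or -0.70 by its second probe. Serpind1, heparin cofactor II, an inhibitor of thrombin alone among clotting proteases, read 166 in control, 128 in HFHFr-F, 103 in HFHFr-FA, 164 in HFHFr-N and 166 in HFHFr-NA. It was lowest in HFHFr-FA, -0.68 from control, and HFHFr-N over control gave -0.02. Serpinf2, alpha-2-antiplasmin, the main inhibitor of plasmin, read 126 in control, 75.5 in HFHFr-F, 115 in HFHFr-FA, 95 in HFHFr-N and 136 in HFHFr-NA. Both pools with retinoic acid read higher than their diet alone, by 0.60 and 0.51. Serping1, the C1 inhibitor, which holds the first complement proteases and kallikrein in check, read 80.4 in control, 49.0 in HFHFr-F, 79.2 in HFHFr-FA, 67.7 in HFHFr-N and 78.1 in HFHFr-NA. HFHFr-F was its lowest array, -0.71 from control, and HFHFr-FA lay -0.02 from control. Serpinf1, pigment epithelium-derived factor, a secreted antiangiogenic protein that inhibits no protease, read 236 in control, 173 in HFHFr-F, 188 in HFHFr-FA, 213 in HFHFr-N and 236 in HFHFr-NA. The ratio of HFHFr-F to control was -0.44, and -0.86 by its second probe. Before scaling, the brighter Serpinc1 probe read 75398.5 in control and 75905.6 in HFHFr-F, so its direction rests on the scaling. Serpind1 read 28868.7 and 28611.5 and the brighter Serpinf1 probe 41049.7 and 38674.4, so their ratios rest largely on it. Serpinf2, Serping1 and the second probes of Serpinc1 and Serpinf1 were lower in HFHFr-F before scaling too. How these ratios depend on the alternative settings was not tested.

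**Figure D5:**
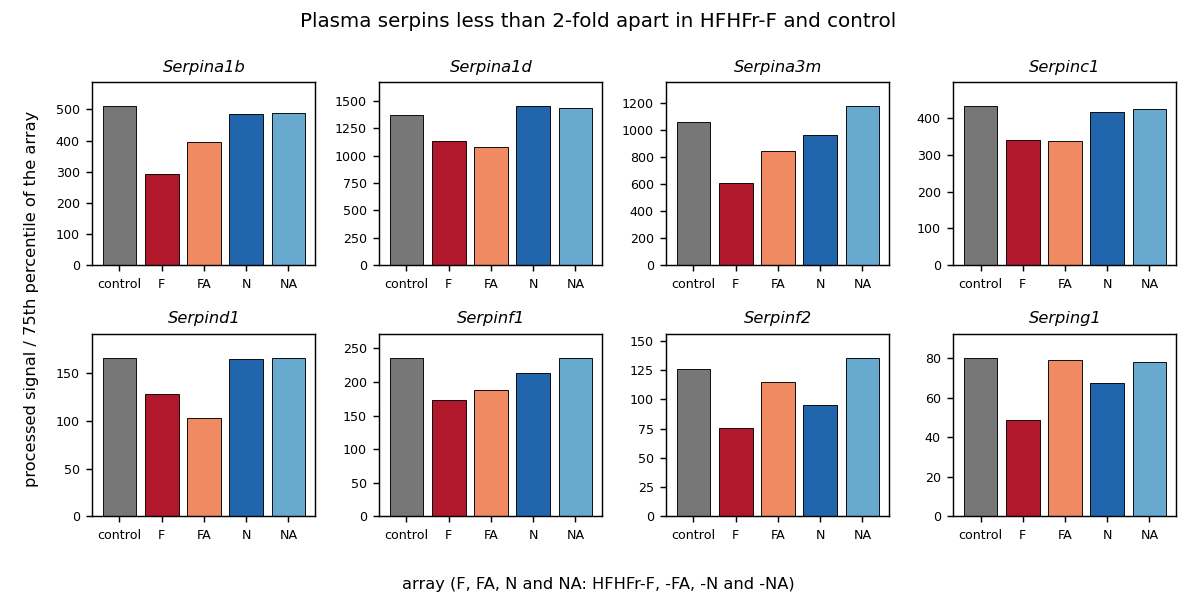
Scaled signal (linear axis from 0) on the 5 arrays for 8 plasma serpins that were less than 2-fold apart in HFHFr-F and control; each bar is 1 array of 5 pooled mice. HFHFr-F or HFHFr-FA is the lowest bar in each panel.

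A list of the proteases these serpins meet, and their partners, had 31 measured genes in HFHFr-F over control. Of these 4 were at least 2-fold higher and 0 lower, where 5.43% and 3.22% of all genes were, and the median was 0.07. The 4 were Plaur, the urokinase receptor, at 1.4, the lysosomal protease Ctss at 1.26, the membrane protease St14 at 1.23 or higher and the granzyme Gzma at 1.09 or higher. Among proteases made by the liver itself, F2 (prothrombin) stood at -0.14, F7 (factor VII) at -0.45, F10 (factor X) at -0.28 and Plg (plasminogen) at -0.12. Klkb1 (plasma prekallikrein) stood just short of 2-fold at -1.0. Other listed clotting proteases are not given singly, and no measured one was 2-fold lower. In HFHFr-N over HFHFr-F 0 of 31 were higher and 3 lower, where 2.12% and 3.67% of all genes were. HFHFr-FA over HFHFr-F had 0 of 31 higher and 1 lower (St14), near the 2.77% and 2.83% of all genes. In HFHFr-N over control 0 of 27 were higher and 0 lower, against 1.14% and 0.825% of all genes. HFHFr-NA over HFHFr-N had 0 of 28 higher and 0 lower, against 1.51% and 1.32%.

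Serpine2, protease nexin 1, an inhibitor of thrombin and urokinase at cell surfaces, read 0.230 in control, 0.0632 in HFHFr-F, 0.123 in HFHFr-FA, 0.116 in HFHFr-N and 0.109 in HFHFr-NA, not well above background in HFHFr-F. Control was its highest array, and the ratios to control were -1.64 or lower in HFHFr-F (-0.69 with normexp background), -0.99 in HFHFr-N, -1.08 in HFHFr-NA and -0.90 in HFHFr-FA. Platelets, which carry Serpine2, had 4 of 6 markers well above background on every array, with a summed signal of 1.34 in control, 2.23 in HFHFr-F, 1.64 in HFHFr-FA, 1.31 in HFHFr-N and 1.32 in HFHFr-NA. Their part was not tested.

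Serpinh1, or HSP47, is a chaperone of the endoplasmic reticulum that folds collagen and inhibits no protease. It read 2.40 in control, 5.24 in HFHFr-F, 5.87 in HFHFr-FA, 2.78 in HFHFr-N and 2.28 in HFHFr-NA with a probe at chr7:106493971-106494030 (mm9). Both pools on the HFHFr diet were over 2-fold above control, HFHFr-F by 1.13 and HFHFr-FA by 1.29, and those on normal diet had ratios to control of 0.22 and -0.07. Its HFHFr-F over control call was kept under all 8 alternative settings, though dropping the detection filter and averaging its 1 probe could not change it. Of 19 measured collagen and collagen-processing genes 7 were higher and 0 lower by 2-fold or more in HFHFr-F over control (median 0.47), led by Col1a1 at 4.12, Col3a1 at 3.29 and Col1a2 at 2.13. Of all genes, 5.43% were higher and 3.22% lower in that comparison. In HFHFr-FA over HFHFr-F, where Serpinh1 gave 0.16, Col1a1 and Col3a1 were lower (-1.72 and -1.71), 0 of 19 were higher and the median was -0.01. Of all genes, 2.77% were higher and 2.83% lower in that comparison. HFHFr-N over HFHFr-F had 0 of 19 higher and 5 lower (median -0.62), with Serpinh1 at -0.91. There 2.12% of all genes were higher and 3.67% lower. HFHFr-N over control and HFHFr-NA over HFHFr-N had none of 17 at 2-fold in either direction. Of all genes, 1.14% were higher and 0.825% lower in the first, and 1.51% and 1.32% in the other. Stellate cell and fibroblast markers, some of them collagens, had 5 of 10 higher and 0 lower in HFHFr-F over control (median 1.1), and their summed signal was 77.0 in control, 118 in HFHFr-F, 116 in HFHFr-FA, 88.9 in HFHFr-N and 103 in HFHFr-NA. Their part in the Serpinh1 values was not tested.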

How the data were processed

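Liver RNA of 5 pooled mice per group was measured in 1 colour (Cy3) on 5 arrays, 1 per group. Per the file headers, the deposited processed intensity of each spot was background-subtracted by Feature Extraction 10.5.1.1, with probe positions on mm9, and it was not scaled between arrays. Raw mean and local background intensity per spot were also deposited. The authors' value table gives a linear ratio: set against the scanner files, it is the processed intensity over a constant of each array, chosen in a way that the sources used here do not give.

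Members were the 54 gene names described above. Another gene that the naming rule selects and 1 probe sequence are not reported here. Members and gene lists were chosen with earlier results of these data known. Of 45018 spots 43379 were not controls. Outlier-flagged spots, 60 to 96 per array, were left out, and no spot was saturated. Processed signals were divided by the array's 75th percentile (172.5 to 222.9), and log2 values of a probe's spots were averaged. The probe with the highest mean stood for a gene. Genes were compared between a pair of arrays if either array had them well above background, which 46.7% to 49.4% of spots were. Genes 2-fold apart were counted. All members measured on any array are named, with values on every array for those 2-fold apart in a comparison, the Serpina1 and Serpina3 genes and the main plasma serpins. With 1 array per group no p-value or SD between replicates exists, and the number of arrays limits the precision. The counting was tested on simulated data. Gene names are those of the array design and can be old. Exon and intron positions were not determined, and signal shared between close relatives was not separated, because no genome or transcripts of that build were used here.

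Alternatives were median centring, quantile normalization and cyclic loess (limma 3.58.1 in R 4.3.3), normexp background with an offset of 50, no detection filter, the mean of a gene's probes, outlier spots kept and the deposited value table. Promoters were aligned with biopython 1.88 in Python 3.11.15.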

Additional observations from a re-analysis of the deposited data

Results flagged for a closer look

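For 2 serpin genes, all-trans retinoic acid went with a 2-fold higher signal on the HFHFr diet and a 2-fold lower one on normal diet, and the difference between the diets was not tested. Serpina4-ps1 had a log2 ratio of 2.88 or higher in HFHFr-FA over HFHFr-F and -1.15 in HFHFr-NA over HFHFr-N. The latter was -0.34 with normexp background. Serpinb1b had 1.04 or higher and -1.09. Its first ratio fell under 2-fold in 5 of 8 alternative settings (0 to 0.94) and its second in 2 (-0.69 and -0.08), and with the mean of its probes the first was 0, so the directions were then not opposite. HFHFr-F did not measure either gene, and HFHFr-FA was on its own slide. To look for local effects on an array, each spot's log2 scaled signal was taken relative to its own median over the 5 arrays. On each array, medians of these values over spots within 2 rows and columns of a measured member's spot ran from -0.17 to 0.25.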

How the results depend on the processing

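No paired analysis was possible because each group had 1 array, and for the same reason no replicate could be left out. Of the 25 ratios that reached 2-fold, each was recomputed under 8 alternatives, and 175 of the 200 values kept 2-fold, 25 fell under it and 0 reversed. Of these 25, 9 came with normexp background, whose added offset shrinks ratios of dim genes by construction, and 5 with the mean of a gene's probes. Some of the 200 values could not fall. Dropping the detection filter leaves a ratio measured on both arrays unchanged and can only widen a bound. The mean of probes returns the main value for a gene with 1 probe. The deposited value table holds the same processed intensity over another constant. The tally therefore overstates how far the calls were tried. With median centring, HFHFr-FA over HFHFr-F had 1 member higher and 2 lower, HFHFr-N over HFHFr-F had 2 lower and HFHFr-N over control had 1 lower. With cyclic loess, the last pair had 2 and 1 lower. With no detection filter, which adds the 25 unmeasured members, the 3 comparisons had 3, 3 and 1 lower, and HFHFr-F over control had 5 higher. HFHFr-N over control also had 1 lower with quantile normalization and with the mean of probes. With normexp background, HFHFr-FA over HFHFr-F had 1 higher, HFHFr-N over HFHFr-F 2 higher and HFHFr-NA over HFHFr-N 1 lower. Member medians moved beyond the combined spot SD of the 2 arrays (the square root of their summed squares) as follows. HFHFr-F over control became -0.26 with cyclic loess. HFHFr-FA over HFHFr-F became 0.35 with median centring, 0.26 with normexp background and 0.000495 with no filter. HFHFr-N over HFHFr-F became 0.25 with median centring, 0.22 with cyclic loess, 0.24 with normexp background, 0.24 with quantile normalization and 0.13 with no filter. Beyond these constructions the cause was not tested. The share of higher genes among all 2-fold genes was 62.7% in HFHFr-F over control (74.6% with cyclic loess and 50.3% with no filter), 49.5% in HFHFr-FA over HFHFr-F (35.7% with median centring) and 36.6% in HFHFr-N over HFHFr-F (25.4% with median centring, 24.0% with cyclic loess and 54.2% with no filter). Dim genes such as Serpine2 and Serpinb1b lie near the lowest measured scaled signals, 0.073 to 0.086 per array.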
